A study of Homo sapiens with 8 samples.

Results

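The 45 genes described here encode the DNA replication machinery: the proteins that mark origins, load and start the replicative helicase, copy both strands and wrap the new DNA into chromatin. A gene was represented by the probe set with the highest mean over all arrays among those annotated to that symbol alone, which gave 45 of the 19774 genes with such a probe set. All 45 had a mean level above the filter used for testing (log2 3.208), which 14517 genes passed. Total RNA of 4 human neuroblastoma lines was hybridised to 8 Affymetrix arrays, 1 array for each line and treatment. Each line was grown in RPMI and received 2.5 µM ciclopirox or vehicle for 48 h. Ciclopirox is an antifungal compound that binds iron. The lines were NB1691 and SKNBE2 (SK-N-BE(2)), both labelled N-Myc, SKNAS (SK-N-AS), labelled c-Myc, and SKNAS/shHIF1a, named for a short hairpin against HIF1A, which encodes the oxygen-sensitive part of a hypoxia-induced transcription factor. SKNAS/shHIF1a is labelled N-Myc although its name gives SKNAS as its parent, and the labels do not say whether it is a clone or a pool.

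Before S phase the origin recognition complex (ORC), with the loaders CDC6 and CDT1, places rings of the MCM proteins on DNA, a step called licensing. CDC45 and the GINS complex then join MCM to form the moving helicase, polymerase alpha-primase lays down primers, and polymerases epsilon and delta extend them while tethered to the sliding clamp PCNA, which replication factor C (RFC) loads. RPA coats the exposed single strands, nucleases and a ligase join the lagging-strand pieces, and chromatin assembly factor 1 (CAF-1) deposits histones behind the fork. Many of these genes are transcribed under E2F factors as cells commit to division.

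Promoter sequence of 4 genes is shown because these were the members with the largest differences between NB1691 and the other lines, by size, whose 250 bases before the start held the E2F letter match TTTNNCGC (GCGNNAAA on the other strand). GINS1 was not among them because its match lay after the start. Each is the 250 bases before the RefSeq start on GRCh38.p14, 5′ to 3′ on the gene's strand, with the match in capitals. CDT1 lies on the plus strand (chr16:88803539-88803788), and GINS2 (chr16:85688955-85689204), TIPIN (chr15:66356686-66356935) and POLE2 (chr14:49688215-49688464) lie on the minus strand.
CDT1: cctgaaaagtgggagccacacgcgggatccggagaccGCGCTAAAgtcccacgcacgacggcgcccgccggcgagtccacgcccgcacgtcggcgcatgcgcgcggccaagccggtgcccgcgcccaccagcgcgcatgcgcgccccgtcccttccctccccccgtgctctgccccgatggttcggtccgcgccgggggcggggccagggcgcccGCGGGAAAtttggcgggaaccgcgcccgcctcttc
GINS2: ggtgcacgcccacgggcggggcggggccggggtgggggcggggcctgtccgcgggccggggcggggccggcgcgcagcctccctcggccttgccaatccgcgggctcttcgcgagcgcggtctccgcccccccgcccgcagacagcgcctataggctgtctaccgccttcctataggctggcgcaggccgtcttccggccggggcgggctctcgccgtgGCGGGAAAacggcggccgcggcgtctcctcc
TIPIN: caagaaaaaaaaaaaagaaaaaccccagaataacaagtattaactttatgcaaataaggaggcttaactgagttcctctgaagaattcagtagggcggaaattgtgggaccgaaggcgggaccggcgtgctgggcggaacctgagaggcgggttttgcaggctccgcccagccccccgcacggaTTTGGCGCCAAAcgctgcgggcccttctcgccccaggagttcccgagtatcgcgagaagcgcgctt
POLE2: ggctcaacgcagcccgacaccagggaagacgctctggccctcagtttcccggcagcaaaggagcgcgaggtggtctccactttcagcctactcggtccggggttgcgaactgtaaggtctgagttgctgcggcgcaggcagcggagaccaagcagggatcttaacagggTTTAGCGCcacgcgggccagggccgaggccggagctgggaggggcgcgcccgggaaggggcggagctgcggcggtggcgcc
The CDT1 window held 2 matches, whose first bases were 213 and 35 bases before the start. In TIPIN 2 matches overlapped, GINS2 held 1 match 31 bases before the start, and POLE2 held 1 at 81 bases. RefSeq windows of 300 bases (250 before and 50 after a start) were matched for 38 of the 45 genes, in 46 windows. The E2F letters were present in 23 of the 46 windows (50.0%) and in 6.89% of all 35116 windows. By gene this was 23 of 38 (60.5%), against 12.4% of the 11666 tested genes with a window. All letters were searched on both strands. CCAAT was in 58.7% of the members' windows and 34.6% of all windows. The E-box CACGTG was in 10.9% and 7.26%. ACGTG, whose letters are part of that E-box, was in 28.3% and 21.4%. TTTGAA was in 0 of 46 windows and in 15.2% of all windows. A match describes the letters of the window and does not show that a factor binds there.

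The median log2 signal of an array was 3.474 at the lowest and 3.52 at the highest. HIF1A had log2 signals of 11.09 (ciclopirox) and 11.71 (vehicle) on the arrays of SKNAS/shHIF1a, below the other 6 arrays, which spanned 11.88 to 12.25. Of the markers that define neuroblastoma cells, GATA3 lay between 9.74 and 12.07, PHOX2A between 6.93 and 10.18 and ISL1 between 6.33 and 11.08 on all arrays, while HAND2 was low throughout (3.99 to 5.30). TH and DBH, enzymes of catecholamine synthesis, were low in SKNAS and SKNAS/shHIF1a (3.15 to 3.59 and 4.37 to 5.72), against 6.32 to 7.99 and 9.97 to 10.90 in NB1691 and SKNBE2. MYC had signals of 9.23 and 9.86 and MYCN of 5.65 and 5.41 on the ciclopirox and vehicle arrays of SKNAS/shHIF1a, which is labelled N-Myc.

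On ciclopirox the replication genes were mostly higher than on vehicle in NB1691 and mostly lower in the 3 other lines. In NB1691 35 of the 45 were higher, where 47.9% of all tested genes were, and 10 were lower, where 52.1% of all genes were. In SKNAS 7 were higher (47.2% of all genes) and 38 lower (52.8%). SKNBE2 had 6 higher (48.9%) and 39 lower (51.1%). In SKNAS/shHIF1a only ORC3 was higher (47.2%) and 44 were lower (52.8%). The median difference, ciclopirox minus vehicle on the log2 scale, was 0.31 in NB1691, -0.24 in SKNAS, -0.22 in SKNBE2 and -0.70 in SKNAS/shHIF1a, while the median over all tested genes lay between -0.03 and -0.01 in every line. With 1 array per line and treatment, no difference within a single line has a replicate check. Each array averages a whole culture, so fewer cells in S phase and less of these transcripts per cell cannot be told apart.

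**Figure D1:**
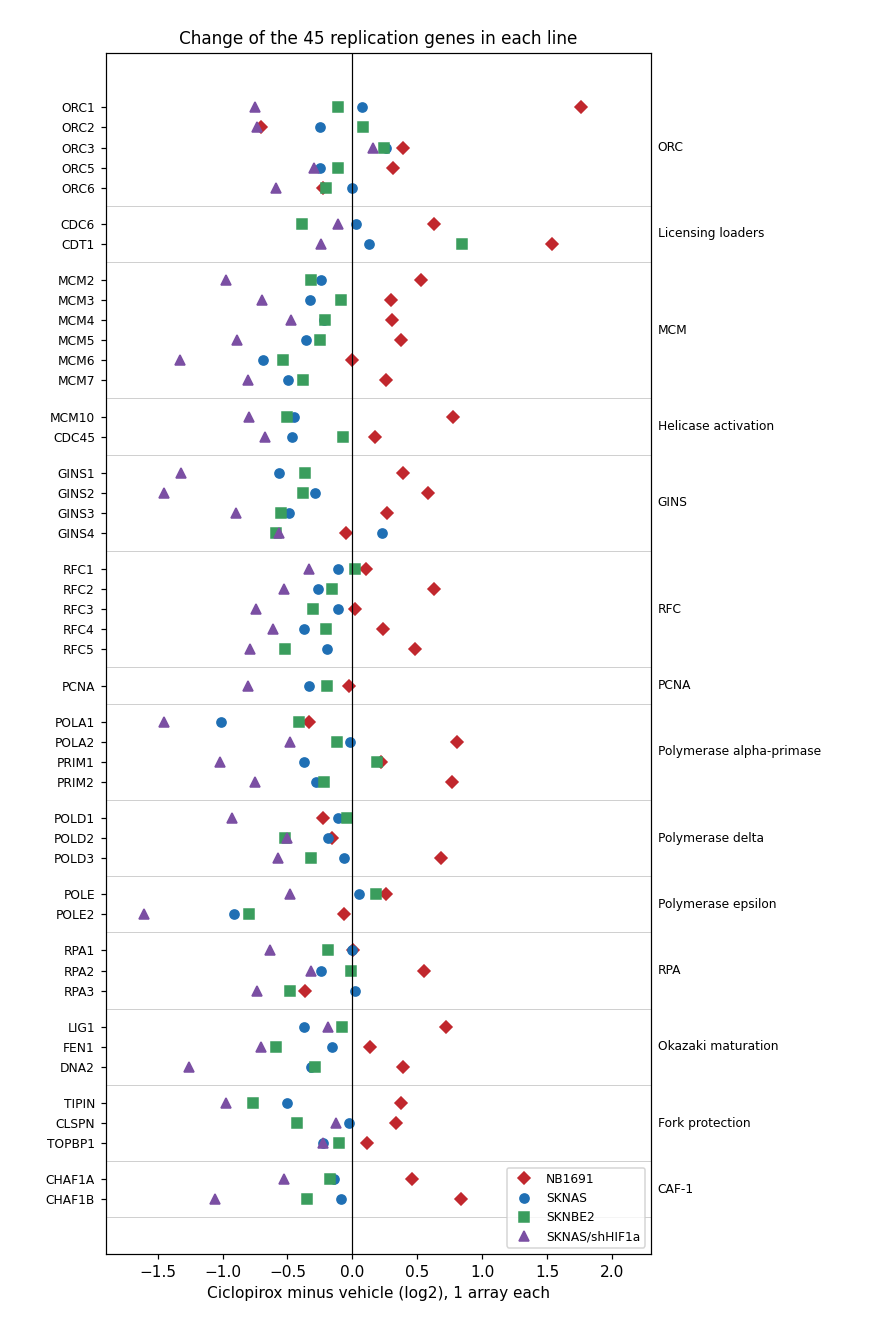
Difference between the ciclopirox and the vehicle array (log2, horizontal axis) for each of the 45 replication genes, grouped by complex down the page, with 1 symbol per line. NB1691 (red diamonds) lies to the right of the other lines for 40 genes, and SKNAS/shHIF1a (purple triangles) to the left of them for 40 genes.

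For 28 of 45 genes the sign was positive in NB1691 and negative in all 3 other lines, a pattern that 8.2% of all tested genes showed. The reverse pattern was seen in 0 members and in 7.75% of all genes. The NB1691 difference lay above that of each other line for 40 genes (29.0% of all genes), and the SKNAS/shHIF1a difference lay below that of each other line for 40 genes (25.1%). ORC6, MCM6, PCNA, POLA1, POLD1, POLD2 and POLE2 were lower in all 4 lines (7 of 45, against 16.0% of all genes), and ORC3 alone was higher in all 4 (11.8%). Differences of at least 1.5-fold upward were found for 10 members in NB1691 (10.3% of all genes), 0 in SKNAS (8.31%), 1 in SKNBE2 (7.71%) and 0 in SKNAS/shHIF1a (11.3%). Downward they were found for 1 member in NB1691 (13.9%), 3 in SKNAS (7.83%), 4 in SKNBE2 (6.22%) and 28 in SKNAS/shHIF1a (12.5%). At 2-fold, ORC1 and CDT1 were higher in NB1691 (2 members, 3.31% of all genes), POLA1 was lower in SKNAS (1 member, 1.62%), and MCM6, GINS1, GINS2, POLA1, PRIM1, POLE2, DNA2 and CHAF1B were lower in SKNAS/shHIF1a (8 members, 4.31%).

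**Figure D2:**
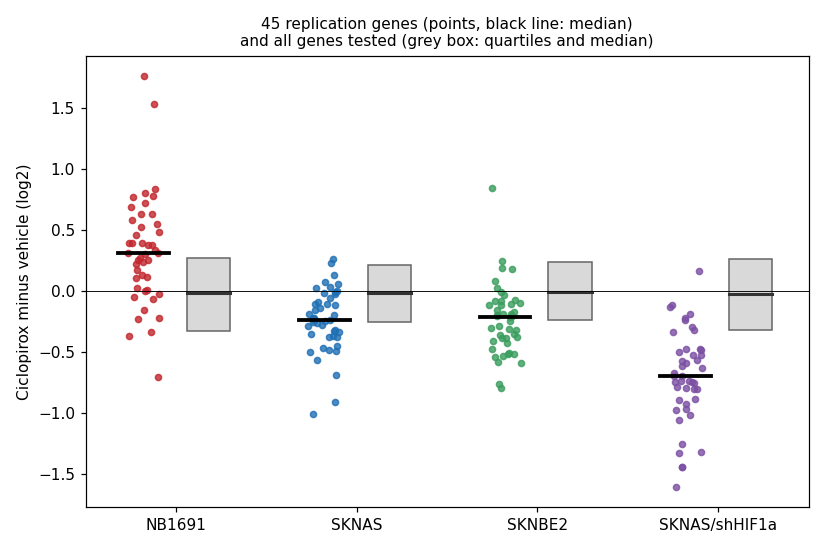
Ciclopirox minus vehicle difference (log2, vertical axis) of the 45 replication genes (points, 1 per gene; black line, their median) beside the quartiles and median of all 14517 tested genes (grey box), for each line. The members' medians are 0.31 in NB1691, -0.24 in SKNAS, -0.22 in SKNBE2 and -0.70 in SKNAS/shHIF1a, while each grey box is centred close to 0.

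ORC, which marks the places where replication can start, had median differences of 0.31 in NB1691, -0.01 in SKNAS, -0.11 in SKNBE2 and -0.59 in SKNAS/shHIF1a. The SKNAS median turned to 0.0034 after quantile normalization. ORC1, the ATP-binding subunit whose abundance varies with the cell cycle, had log2 signals of 7.64 on the ciclopirox and 5.88 on the vehicle array of NB1691, 6.96 and 6.88 in SKNAS, 6.43 and 6.54 in SKNBE2, and 6.14 and 6.90 in SKNAS/shHIF1a. NB1691 had both the highest ciclopirox array and the lowest vehicle array, a ratio of 3.39. The NB1691 difference minus the mean of the other 3 was 2.02 ± 0.40 (SE), the largest of the 45, with an adjusted p of 0.325 in limma's fit over all genes. ORC2 was the only member whose NB1691 difference lay below the mean of the others. Its brightest probe set had 7.41 on ciclopirox and 8.11 on vehicle in NB1691, while its other probe set above the filter was higher by 0.17 there, so the ORC2 probe sets disagreed in sign. ORC3 was higher on ciclopirox in each line (0.39 in NB1691, 0.26 in SKNAS, 0.25 in SKNBE2 and 0.16 in SKNAS/shHIF1a). ORC5 showed the NB1691 pattern (0.31, against -0.30 to -0.11 in the others), and ORC6 was at -0.23 in NB1691 and between -0.59 and -0.01 in the others.

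The licensing loaders, 2 genes, were the only complex with every member higher in both NB1691 and SKNAS. In SKNAS this rested on 0.03 for CDC6, whose other probe set was at -0.06 there. The CDC6 value in SKNAS turned to -0.03 after median centring and to -0.02 with averaged probe sets. CDT1, which escorts MCM to ORC and is held in check by geminin, had signals of 11.62 (ciclopirox) and 10.09 (vehicle) in NB1691, 8.77 and 8.64 in SKNAS, 11.26 and 10.41 in SKNBE2, and 8.21 and 8.45 in SKNAS/shHIF1a. It was the member with the largest upward difference in SKNBE2, 0.84. Over all 4 lines the mean difference was 0.57 ± 0.30 (SE; limma, adjusted p = 0.364), and 0.24 without NB1691. NB1691 exceeded the other lines by 1.29 ± 0.47 (SE; limma, adjusted p = 0.407), and by 0.69, with no test, when set against SKNBE2 alone. CDC6, the ATPase that works with ORC, was higher by 0.63 in NB1691 and differed by 0.03 in SKNAS, -0.39 in SKNBE2 and -0.11 in SKNAS/shHIF1a.

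The MCM2 to MCM7 subunits, which form the ring at the core of the helicase, differed alike within each line. Median differences were 0.30 in NB1691, -0.34 in SKNAS, -0.28 in SKNBE2 and -0.85 in SKNAS/shHIF1a, and all 6 subunits were lower in each of the 3 other lines. MCM2 had signals of 11.23 (ciclopirox) and 10.70 (vehicle) in NB1691, 10.01 and 10.25 in SKNAS, 10.60 and 10.92 in SKNBE2, and 9.38 and 10.35 in SKNAS/shHIF1a. MCM7 had 10.72 and 10.46 in NB1691, 9.59 and 10.09 in SKNAS, 10.13 and 10.51 in SKNBE2, and 9.35 and 10.16 in SKNAS/shHIF1a. In both genes the ciclopirox arrays of NB1691 and SKNAS/shHIF1a were the top and bottom ciclopirox arrays. MCM6 departed from the other subunits, with 10.94 on both NB1691 arrays, 9.99 (ciclopirox) and 10.68 (vehicle) in SKNAS, 10.17 and 10.70 in SKNBE2, and 9.41 and 10.74 in SKNAS/shHIF1a. Its 4 vehicle arrays lay close together, and on ciclopirox only the NB1691 array was at that level. The mean MCM6 difference over the lines was -0.64 ± 0.22 (SE; limma, adjusted p = 0.234), and -0.41 without SKNAS/shHIF1a. MCM3, MCM4 and MCM5 were higher by 0.30 to 0.37 in NB1691. In SKNAS/shHIF1a they were lower, at -0.70 for MCM3, -0.47 for MCM4 and -0.89 for MCM5.

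MCM10, which helps to switch the loaded helicase on, had signals of 9.32 (ciclopirox) and 8.55 (vehicle) in NB1691, 8.75 and 9.20 in SKNAS, 8.71 and 9.22 in SKNBE2, and 8.20 and 8.99 in SKNAS/shHIF1a. On vehicle NB1691 was the lowest of the lines and on ciclopirox the highest. NB1691 differed from the mean of the other lines by 1.36 ± 0.27 (SE; limma, adjusted p = 0.325). Its 3 probe sets above the filter were higher by 0.78, 1.00 and 0.84 in NB1691. CDC45, which binds MCM and GINS in the moving helicase, was higher by 0.17 in NB1691 and differed by -0.47 in SKNAS, -0.07 in SKNBE2 and -0.67 in SKNAS/shHIF1a.

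GINS, the other partner of the helicase, had median differences of 0.33 in NB1691, -0.39 in SKNAS, -0.46 in SKNBE2 and -1.11 in SKNAS/shHIF1a. GINS2 had signals of 10.48 (ciclopirox) and 9.89 (vehicle) in NB1691, 7.99 and 8.28 in SKNAS, 10.05 and 10.43 in SKNBE2, and 6.88 and 8.33 in SKNAS/shHIF1a. Its ratio in SKNAS/shHIF1a was 0.37. GINS1 was higher by 0.39 in NB1691 and differed by -0.57 in SKNAS, -0.37 in SKNBE2 and -1.32 in SKNAS/shHIF1a, with a mean of -0.47 ± 0.27 (SE; limma, adjusted p = 0.406). The GINS1 mean was -0.75 without NB1691, -0.18 without SKNAS/shHIF1a and -0.31 with both SKNAS lines averaged. NB1691 differed from the others by 1.29 ± 0.54 for GINS2 (SE; limma, adjusted p = 0.445), and by 0.64 with averaged probe sets. GINS3 differed by 0.27 in NB1691, -0.49 in SKNAS, -0.55 in SKNBE2 and -0.90 in SKNAS/shHIF1a. GINS4 signals were 4.90 (ciclopirox) and 4.94 (vehicle) in NB1691, 7.01 and 6.78 in SKNAS, 6.26 and 6.85 in SKNBE2, and 6.36 and 6.93 in SKNAS/shHIF1a, so it was low in NB1691 under both conditions.

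**Figure D3:**
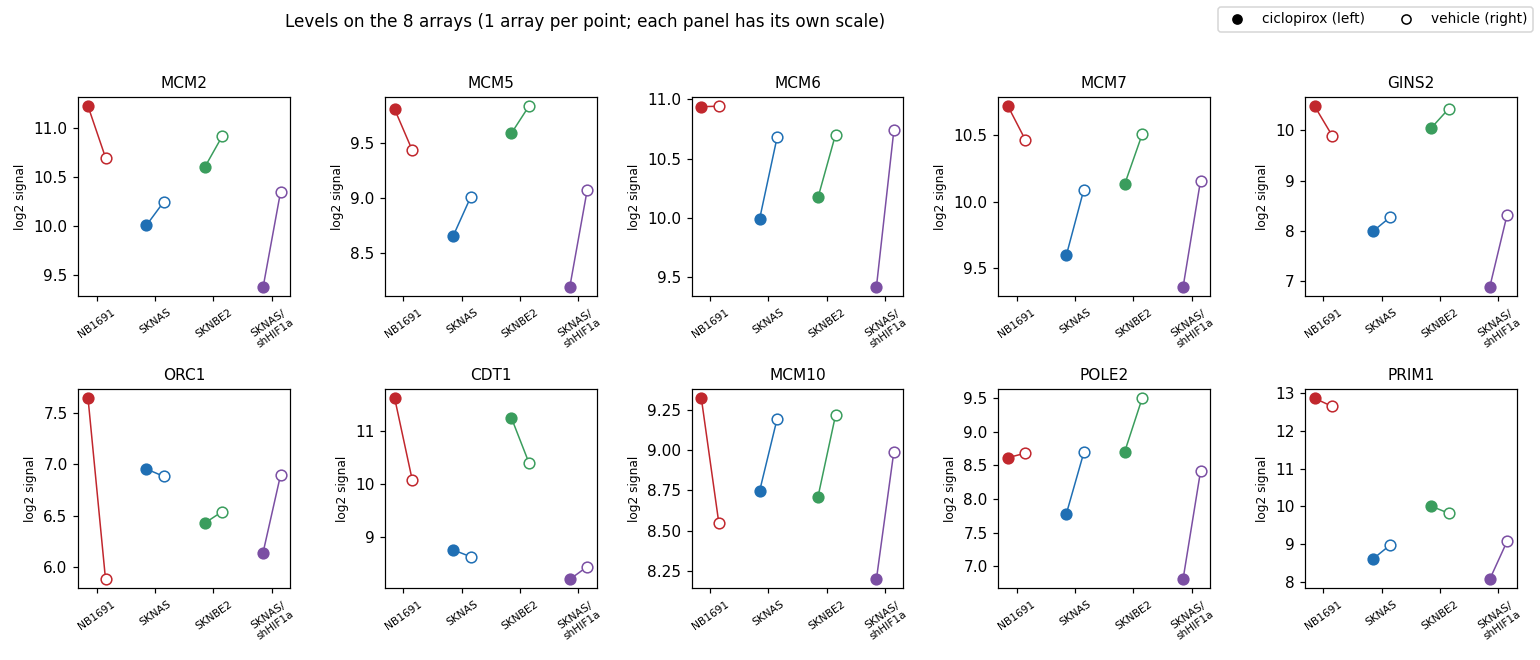
Log2 signal on each of the 8 arrays for 10 replication genes, 1 panel per gene with its own scale, ciclopirox (filled) left of vehicle (open) in each line. For MCM2, MCM5, MCM7, GINS2, ORC1, CDT1, MCM10 and PRIM1 the NB1691 ciclopirox point is the higher of the NB1691 pair, and in all panels the SKNAS/shHIF1a ciclopirox point is the lower of its pair.

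In RFC and PCNA, the clamp loader and the clamp, the median or single difference was also highest in NB1691 and lowest in SKNAS/shHIF1a. All 5 RFC genes were higher in NB1691 (0.02 for RFC3 to 0.63 for RFC2), with a median of 0.23, and all 5 were lower in SKNAS (median -0.20) and SKNAS/shHIF1a (median -0.61). In SKNBE2 4 of 5 were lower (median -0.20). PCNA had signals of 11.58 (ciclopirox) and 11.61 (vehicle) in NB1691, 11.39 and 11.72 in SKNAS, 11.85 and 12.04 in SKNBE2, and 10.89 and 11.69 in SKNAS/shHIF1a. The pair differed least in NB1691 and most in SKNAS/shHIF1a (-0.80).

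The polymerases were less uniform. Of the 9 subunits among the members 5 were higher in NB1691, 1 in SKNAS, 2 in SKNBE2 and 0 in SKNAS/shHIF1a. Their medians were 0.22, -0.19, -0.22 and -0.75 in that order of lines. POLE3, POLE4 and POLD4 were also measured but belong to a separate list of other replication factors, described below. POLE3 and POLE4 were higher in NB1691 (0.29 and 0.17) and lower in each other line. POLD4 was lower in NB1691 (-0.49) and higher in each other line. POLA1, the catalytic subunit of polymerase alpha, had signals of 8.62 (ciclopirox) and 8.95 (vehicle) in NB1691, 6.65 and 7.66 in SKNAS, 8.02 and 8.44 in SKNBE2, and 6.41 and 7.86 in SKNAS/shHIF1a. It was lower on ciclopirox in every line, most in SKNAS/shHIF1a (-1.45), and the mean was -0.80 ± 0.22 (SE; limma, adjusted p = 0.183). POLA2, its partner subunit, was instead higher by 0.80 in NB1691 and between -0.48 and -0.02 in the others, so both subunits of the same enzyme differed in sign in NB1691. PRIM2, the large primase subunit, had signals of 8.38 (ciclopirox) and 7.62 (vehicle) in NB1691, 7.46 and 7.74 in SKNAS, 7.46 and 7.68 in SKNBE2, and 7.01 and 7.76 in SKNAS/shHIF1a. The 4 vehicle arrays were alike and the ciclopirox array of NB1691 stood above all 7 others. NB1691 differed from the others by 1.18 ± 0.32 (SE; limma, adjusted p = 0.342). The other 3 probe sets of PRIM2 above the filter disagreed, with 1.15, 0.27 and -0.02 for the same contrast, and the averaged probe sets gave 0.65.

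PRIM1, the catalytic primase subunit, was marked by its level. It had signals of 12.87 (ciclopirox) and 12.65 (vehicle) in NB1691, 8.61 and 8.98 in SKNAS, 10.01 and 9.82 in SKNBE2, and 8.06 and 9.08 in SKNAS/shHIF1a. Both NB1691 arrays lay above the other 6. POLE2, the accessory subunit of the leading-strand polymerase epsilon, had 8.62 (ciclopirox) and 8.68 (vehicle) in NB1691, 7.78 and 8.69 in SKNAS, 8.70 and 9.50 in SKNBE2, and 6.81 and 8.41 in SKNAS/shHIF1a. Its mean difference was -0.85 ± 0.25 (SE; limma, adjusted p = 0.198), and -1.61 in SKNAS/shHIF1a was the lowest value of any member in any line. POLE, the catalytic subunit, was higher in NB1691 (0.26), SKNAS (0.05) and SKNBE2 (0.18) and lower in SKNAS/shHIF1a (-0.48). In polymerase delta, which extends the lagging strand, POLD3 was higher by 0.68 in NB1691 while POLD1 and POLD2 were at -0.23 and -0.16. These 3 members were lower in the other lines. POLD4, a further delta subunit outside the members, differed by -0.49 in NB1691, 0.73 in SKNAS, 0.05 in SKNBE2 and 0.35 in SKNAS/shHIF1a.

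RPA, the single-strand binding complex, showed no common direction in NB1691 (RPA1 0.00, RPA2 0.55, RPA3 -0.37). Its median there was 0.00 and became -0.19 when a gene's probe sets were averaged. The SKNAS median of RPA, also 0.00 after rounding, was 0.02 after quantile normalization. In SKNAS/shHIF1a all 3 were lower (median -0.63). RPA1 had signals of 11.67 on both NB1691 arrays, 10.07 on both SKNAS arrays, 10.48 (ciclopirox) and 10.67 (vehicle) in SKNBE2, and 9.40 and 10.03 in SKNAS/shHIF1a, so its NB1691 arrays lay above the other 6.

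The enzymes that finish Okazaki fragments were higher in NB1691: LIG1, the ligase, by 0.72, DNA2, a nuclease and helicase, by 0.39, and FEN1, the flap nuclease, by 0.13. They were lower in each other line, with medians of -0.32 in SKNAS, -0.29 in SKNBE2 and -0.70 in SKNAS/shHIF1a. TIPIN, a partner of TIMELESS that stabilises stalled forks, had signals of 8.46 (ciclopirox) and 8.09 (vehicle) in NB1691, 8.39 and 8.89 in SKNAS, 8.51 and 9.27 in SKNBE2, and 7.71 and 8.68 in SKNAS/shHIF1a. Its mean difference was -0.46 ± 0.24 (SE; limma, adjusted p = 0.349), -0.74 without NB1691 and -0.30 without SKNAS/shHIF1a. CLSPN, which carries the checkpoint signal, gave signals of 3.78 to 4.64, close to the filter, and TOPBP1, which helps to start the helicase and to activate ATR, differed by 0.11 in NB1691 and by -0.23 to -0.10 in the others.

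CAF-1 ended the list with medians of 0.65 in NB1691, -0.12 in SKNAS, -0.26 in SKNBE2 and -0.79 in SKNAS/shHIF1a. CHAF1B, its middle subunit, had signals of 6.76 (ciclopirox) and 5.93 (vehicle) in NB1691, 6.21 and 6.30 in SKNAS, 6.15 and 6.50 in SKNBE2, and 5.11 and 6.17 in SKNAS/shHIF1a. The NB1691 pair and the SKNAS/shHIF1a pair differed in opposite directions by similar amounts (0.83 and -1.06). NB1691 differed from the other lines by 1.33 ± 0.44 (SE; limma, adjusted p = 0.378). PRIM2, POLD1, POLE and DNA2, whose proteins carry iron-sulfur clusters, had a median of 0.32 in NB1691, -0.20 in SKNAS, -0.13 in SKNBE2 and -0.84 in SKNAS/shHIF1a, near the medians of all 45 members.

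None of the 45 genes passed a test over all genes. In limma's fit of ciclopirox against vehicle with the line as a block, 0 members and 0 of 14517 genes were called at an adjusted p under 0.05 (0.0% of all genes in either direction). At an unadjusted p under 0.05, 0 members were higher (7.67% of all genes) and 5 were lower (POLA1, POLE2, MCM6, POLD2 and RPA3; 10.2% of all genes), and the lowest adjusted p of a member was 0.183. The members' median estimate was -0.24, against -0.01 for all genes, and 38 of 45 estimates were negative. The members' median was -0.39 without NB1691 (43 negative), -0.06 without SKNAS/shHIF1a (30 negative) and -0.16 with both SKNAS lines averaged. At an unadjusted p under 0.05, 17 members were lower without NB1691 (9.86% of all genes), 2 without SKNAS (6.12%), 3 without SKNBE2 (9.34%) and 2 without SKNAS/shHIF1a (5.83%). For no member did all 4 ciclopirox arrays lie below, or all above, the 4 vehicle arrays (1.47% and 1.06% of all genes).

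In limma's fit of the NB1691 difference against the other 3 lines, again 0 members and 0 genes were called (0.0% of all genes in either direction). At an unadjusted p under 0.05 17 members stood higher in NB1691 (5.45% of all genes) and 0 lower (6.44%). The estimate was positive for 44 of 45 members, with a median of 0.74 against -0.02 for all genes. At an unadjusted p under 0.05, 8 members stood higher without SKNAS (3.06% of all genes), 8 without SKNAS/shHIF1a (3.46%) and 21 without SKNBE2 (8.23%). The median was 0.82 over the 23 members with E2F letters in a window and 0.62 over the 15 with a window and none. The sign pattern, higher in NB1691 and lower in each other line, was instead seen in 13 of those 23 and in 10 of those 15. ORC1 (2.02), MCM10 (1.36) and CHAF1B (1.33), which had the largest estimates, had windows without the letters. A link between the letters and the difference was not tested. The fit holds 1 NB1691 value against 3, with SKNAS and its derivative not independent, and takes the lone value to vary as the others do.

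**Figure D4:**
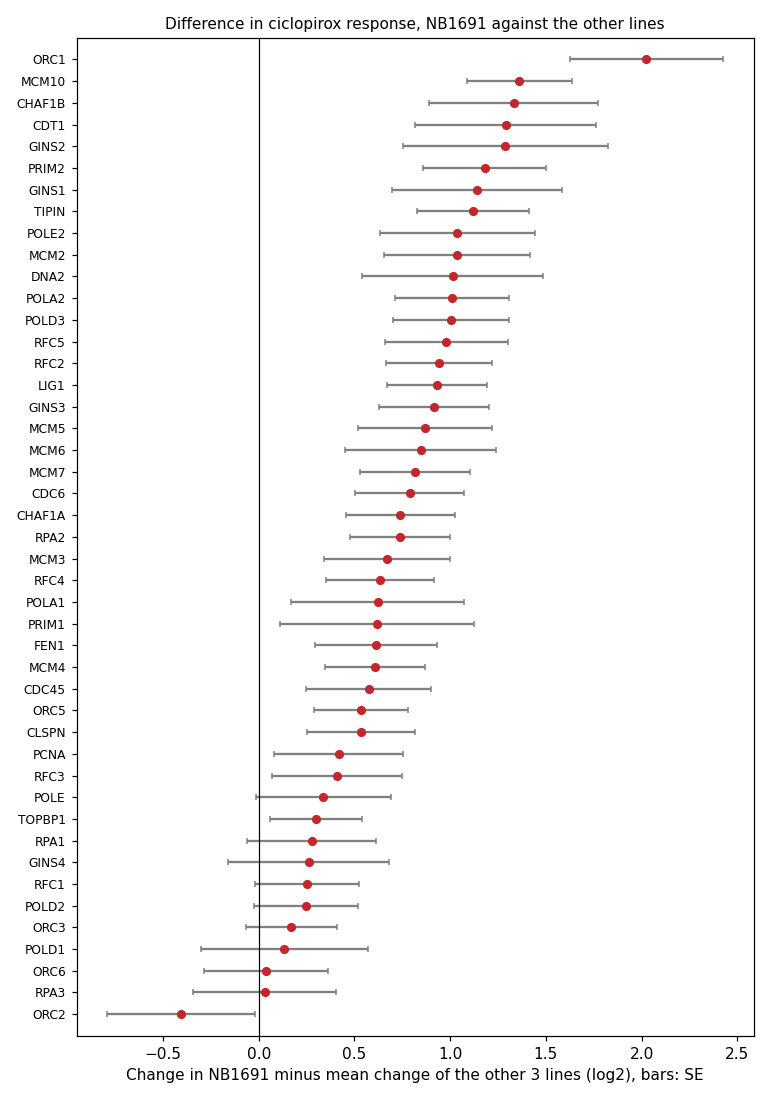
NB1691 difference (ciclopirox minus vehicle) minus the mean difference of the other 3 lines (log2, horizontal axis) for each replication gene, with the standard error of limma's fit as bars. Of 45 points 44 lie to the right of 0, from 0.03 for RPA3 to 2.02 for ORC1, and ORC2 lies at -0.40.

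Levels also differed between the lines on the vehicle arrays, with a median range below that of all tested genes. On vehicle SKNBE2 had the highest signal for 28 of 45 genes (29.2% of all genes) and NB1691 for 7 (29.8%), while NB1691 had the lowest for 19 (30.3%). On ciclopirox NB1691 had the highest signal for 29 genes (30.1%) and SKNAS/shHIF1a the lowest for 39 (24.1%). The range over the 4 lines had a median of 1.22 on ciclopirox arrays and 0.79 on vehicle arrays for the members, against 1.05 and 0.90 for all tested genes, and it was larger on ciclopirox for 41 of 45 members and for 60.9% of all genes. Both NB1691 arrays lay above the other 6 for MCM6, RFC1, RFC4, POLA1, PRIM1 and RPA1 (6 genes, against 15.6% of all genes) and below them for GINS4 and FEN1 (2 genes, 14.4%).

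Over both treatments limma called 0 members and 0 genes different in level between NB1691 and the mean of the other lines (0.0% of all genes in either direction). At an unadjusted p under 0.05, PRIM1 (3.67 ± 0.66 SE, adjusted p = 0.218) and RPA1 (1.55 ± 0.43 SE, adjusted p = 0.321) were higher in NB1691 (2 members, 7.25% of all genes) and GINS4 was lower (-1.78 ± 0.26 SE, adjusted p = 0.177; 1 member, 5.91%). Without SKNBE2 the fit called 2352 genes and 8 members, CDT1, GINS2, MCM3, POLA1, PRIM1, RFC4 and RPA1 higher and GINS4 lower. Out of 14517 tested genes and 45 members these are similar shares, so the calls do not set the members apart. In that fit the only reference lines were SKNAS and its derivative, which are not independent. Its error is the spread between a line and its own derivative, not between separate lines. The set of lines thus decides these calls.

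Of the 45 genes 21 had further probe sets above the filter, 32 in all. Of these 32 probe sets 28 were higher on ciclopirox in NB1691 (47.9% of all tested genes). In SKNAS 25 were lower (52.8%), in SKNBE2 28 (51.1%) and in SKNAS/shHIF1a 30 (52.8%). The NB1691 difference exceeded the mean of the other lines in 29 of 32.

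Genes around the machinery were described from lists of other replication factors, origin-firing regulators, E2F and RB proteins, CDK inhibitors, checkpoint proteins and nucleotide supply. In none of these lists was a gene called by limma. Among 29 other replication factors 17 were higher in NB1691 (47.9% of all genes), 12 in SKNAS (47.2%), 2 in SKNBE2 (48.9%) and 2 in SKNAS/shHIF1a (47.2%). Over the lines 0 were higher (7.67% of all genes) and 3 lower (10.2%) at an unadjusted p under 0.05. RNASEH2B, a subunit of RNase H2, was lower in every line (-0.64, -1.05, -0.85 and -1.22 in NB1691, SKNAS, SKNBE2 and SKNAS/shHIF1a), with a mean of -0.94 ± 0.14 (SE; limma, adjusted p = 0.121), and -0.26 with averaged probe sets. MCM9, an MCM relative with a role in repair, had a mean of -0.76 ± 0.18 (SE; limma, adjusted p = 0.164), and -0.36 with averaged probe sets. All 8 origin-firing regulators were lower in SKNAS/shHIF1a (52.8% of all genes) and 6 of 8 were higher in NB1691 (47.9%). CCNE1, a cyclin of S-phase entry, had a mean of -0.59 ± 0.19 (SE; limma, adjusted p = 0.219), and CCNE2 one of -0.41 ± 0.25 (SE; limma, adjusted p = 0.420). The CCNE1 mean was -0.29 with averaged probe sets and -0.39 without SKNAS/shHIF1a, and the CCNE2 mean -0.15 without that line. GMNN, which encodes the CDT1 inhibitor geminin, had signals of 11.24 (ciclopirox) and 11.19 (vehicle) in NB1691, 10.48 and 10.73 in SKNAS, 10.71 and 11.34 in SKNBE2, and 9.73 and 10.63 in SKNAS/shHIF1a. Its mean difference was -0.43 ± 0.18 (SE; limma, adjusted p = 0.294), and -0.28 without SKNAS/shHIF1a. In NB1691 GMNN differed by 0.05, beside 1.53 for CDT1.

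In the E2F and RB list 14 of 19 genes were higher in NB1691 (47.9% of all genes) and 5 of 19 in SKNAS/shHIF1a (47.2%). E2F1, an activator of replication genes, had signals of 6.20 (ciclopirox) and 5.77 (vehicle) in NB1691, 4.57 and 5.07 in SKNAS, 5.66 and 5.44 in SKNBE2, and 4.90 and 5.31 in SKNAS/shHIF1a. It was higher in NB1691 and SKNBE2 and lower in both SKNAS lines, with a mean of -0.06 ± 0.20 (SE; limma, adjusted p = 0.889) that was -0.23 without NB1691 and 0.08 without SKNAS. RBL1, the pocket protein p107, had a mean of -0.71 ± 0.25 (SE; limma, adjusted p = 0.240) and LIN37, a DREAM complex subunit, one of 0.70 ± 0.16 (SE; limma, adjusted p = 0.159). With averaged probe sets these were -0.26 for RBL1 and 0.33 for LIN37, and RBL1 was at -0.39 without SKNAS/shHIF1a. CDKN1A, which encodes the CDK inhibitor p21, had signals of 10.89 (ciclopirox) and 9.17 (vehicle) in NB1691, 8.92 and 6.03 in SKNAS, 6.90 and 5.58 in SKNBE2, and 9.56 and 6.36 in SKNAS/shHIF1a. It was higher on ciclopirox in 4 of 4 lines, NB1691 included, by a mean of 2.28 ± 0.34 (SE; limma, adjusted p = 0.121), and 1.20 with averaged probe sets. CDKN1C, a related inhibitor, had a mean of 0.60 ± 0.24 (SE; limma, adjusted p = 0.272), and 0.40 without SKNAS/shHIF1a.

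Of the 9 checkpoint genes 6 were higher in NB1691 (47.9% of all genes) and 1 in SKNAS/shHIF1a (47.2%). ETAA1, an activator of ATR, had a mean of -0.59 ± 0.13 (SE; limma, adjusted p = 0.153) and ATR, the kinase that senses exposed single strands, one of -0.29 ± 0.12 (SE; limma, adjusted p = 0.296). All 7 nucleotide supply genes were higher in NB1691 (47.9% of all genes) and 1 of 7 in SKNAS/shHIF1a (47.2%). DCTPP1, which clears modified nucleotides, had a mean of -0.42 ± 0.19 and TYMS, thymidylate synthase, one of -0.25 ± 0.17 (SE; limma, adjusted p = 0.312 and 0.472). DCTPP1 was at -0.63 without NB1691, and TYMS at -0.03 with averaged probe sets and -0.08 without SKNAS/shHIF1a. MKI67, the proliferation marker, had signals of 10.17 (ciclopirox) and 8.50 (vehicle) in NB1691, 9.57 and 8.85 in SKNAS, 8.84 and 8.91 in SKNBE2, and 8.53 and 8.30 in SKNAS/shHIF1a. MKI67 therefore had the NB1691 difference on the same side as the members (1.67) but was not lower in SKNAS or its derivative, and its mean difference of 0.64 ± 0.29 (SE; limma, adjusted p = 0.312) became -0.02 when its probe sets were averaged and 0.29 without NB1691.

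MYC and MYCN, which encode the transcription factors named in the labels, had mean differences of -0.12 ± 0.32 and 0.15 ± 0.17 (SE; limma, adjusted p = 0.868 and 0.680). With a line left out the MYC mean lay between -0.37 and 0.19 and the MYCN mean between 0.002 and 0.29. Both means mix lines with signal and lines near the filter. MYC was at 2.66 to 3.28 in NB1691 and SKNBE2, with differences of 0.58 and 0.62. In SKNAS it had signals of 9.10 (ciclopirox) and 10.16 (vehicle), and it was lower there (-1.06) and in SKNAS/shHIF1a (-0.63). MYCN was at 2.77 to 3.36 in SKNAS (0.59) and differed by -0.29 in NB1691, 0.05 in SKNBE2 and 0.24 in SKNAS/shHIF1a. Markers of other cell types were also compared between conditions, 9 on the array. CD3E, CDH1 and ALB were below the filter, and the summed log2 signal of the 9 lay between 32.5 and 46.7 on ciclopirox arrays and between 34.5 and 47.8 on vehicle arrays. PTPRC, the leukocyte antigen CD45, had signals of 6.34 (ciclopirox) and 9.57 (vehicle) in SKNAS/shHIF1a and 10.42 and 11.53 in SKNAS, against 3.03 to 3.29 in NB1691 and SKNBE2. Its difference moved with the members' lower values in both SKNAS lines, but the 6 markers above the filter had no common direction. In SKNAS/shHIF1a 3 were lower (52.8% of all genes), PTPRC (-3.23), PDGFRB (-0.66) and VWF (-0.26). PECAM1 (1.48), COL1A1 (0.41) and EPCAM (0.27) were higher there. In SKNAS PTPRC (-1.11), PDGFRB (-0.66) and COL1A1 (-0.18) were lower, and PECAM1 (0.71), VWF (0.32) and EPCAM (0.04) higher. The part of these markers in the result was not tested.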

How the data were processed

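The deposited values are log2 signals of 54715 probe sets on 8 arrays, which the authors obtained with the RMA procedure, per the submitters' processing notes. The RMA software version and genome build are not given in the sources used here. No scaling was added. Of the probe sets 102 were controls, 40914 carried exactly 1 symbol in the platform annotation, 864 several and 12835 none, and only those with 1 symbol were used. The brightest probe set stood for its gene. Testing was limited to genes whose mean reached log2 3.208, the 40th percentile over probe sets.

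The members and all lists were chosen with earlier results of these data known. The ciclopirox and vehicle arrays of a line share their cells of origin and were treated as a pair. limma 3.58.1 (R 4.3.3) was fitted to all 14517 genes, two-sided, calling genes at a Benjamini-Hochberg adjusted p under 0.05: ciclopirox against vehicle with the line as a block (3 residual degrees of freedom, plus 2.98 from the prior), then the difference and the level of NB1691 against the other lines (2 residual degrees of freedom each). Separate cultures are not stated in the labels, so p-values measure only the spread between these samples, and the number of arrays limits the precision. Scripts were tested on simulated data. Tests are printed for members past a test or, since none passed, for the 6 with the largest estimate in each fit of differences, for PRIM1, RPA1 and GINS4, chosen after their values were seen, and, in each other list, where again none passed, for the 2 genes with the largest mean difference and for a fixed set (CDKN1A, E2F1, CCNE1, CCNE2, MKI67, GMNN, MYC, MYCN). Alternatives were another filter, averaged probe sets, median centring, quantile normalization, an intensity trend, no line block, each line left out, SKNAS averaged with its derivative, and other lines set against NB1691. Counts of the NB1691 pattern under these were added after seeing the data. A few genes of the other lists are not reported here. Promoter windows are RefSeq's (GRCh38.p14). MCM4, DNA2, POLD3, MCM5, RPA3, GINS4 and RPA2 had none in the table used.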

Additional observations from a re-analysis of the deposited data

Results flagged for a closer look

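Each of 135 sets of 4 values (levels on the ciclopirox arrays, levels on the vehicle arrays and differences of each member) was searched for a line far from the other 3, and chance marks about 1 set in 20. In 5 sets 1 line stood apart. GINS4 had a log2 signal of 4.94 on the NB1691 vehicle array, against 6.78 to 6.93 in the other lines. RFC3 was at 11.44 on the SKNBE2 vehicle array, against 10.67 to 10.77. POLD2 was at 8.68 on the SKNAS ciclopirox array, against 7.79 to 7.92. POLE was at 6.46 on the SKNAS/shHIF1a ciclopirox array, against 6.98 to 7.08, and TIPIN at 7.71 on the same array, against 8.39 to 8.51.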

How the results depend on the processing

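No alternative gave a called member in either fit of ciclopirox differences. The members lower over the lines at an unadjusted p under 0.05, 5 as reported (10.2% of all genes), were 3 after median centring (9.43%). They were 3 with SKNAS and its derivative averaged (6.38%) and 0 without the cell line block, that is no replicate block (1.77%). With a line left out they were 2 to 17 (5.83% to 9.86%). The members higher, 0 as reported (7.67%), were 1 without a filter (6.71%), 1 with averaged probe sets (7.51%) and 0 to 1 with a line left out (4.71% to 8.25%). Those above the other lines in NB1691, 17 as reported (5.45% of all genes), were 27 after centring (9.38%) and 8 to 21 with a line left out (3.06% to 8.23%). Centring used each array's median over the 19774 genes before the filter, not the median over all probe sets given above. It put the median of all tested genes in NB1691 at 0.12, from -0.02, and that of the members at 0.45. The 28 members higher in NB1691 and lower in each other line (8.2% of all genes) became 33 (13.8%) after centring. They were 26 (9.01%) after quantile normalization and 26 (8.61%) with averaged probe sets. With a line left out they were 30 without SKNAS (11.9%), 30 without SKNBE2 (14.7%) and 28 without SKNAS/shHIF1a (10.8%). Leaving a line out removes a condition of the pattern, so this count could not fall. For levels, all genes called (0 as reported) were 86 without a filter, 13 with averaged probe sets and 135 with an intensity trend. With a line left out they were 0 to 2352, and members called were 0 to 8. Members higher in level at an unadjusted p under 0.05 were 1 after centring (5.61% of all genes) and 1 with the SKNAS lines averaged (3.84%). With a line left out they were 1 to 13 (3.65% to 19.2%). Members lower were 2 without a filter (5.65%), 2 with averaged probe sets (5.65%), 2 after centring (6.07%) and 2 with a trend (5.31%). With a line left out the members lower were 1 to 2 (2.04% to 19.1%). The mean difference of E2F1 turned to 0.052 to 0.081 and that of MYC to 0.048 to 0.19 with SKNAS or its derivative left out, and to 0.066 and 0.12 with them averaged; MKI67 and MYCN turned to -0.015 and -0.0080 with averaged probe sets. Medians that changed sign were ORC (0.0034) and RPA (0.016) in SKNAS after quantile normalization and RPA in NB1691 (-0.19) with averaged probe sets. Counts that moved after centring were 6 members lower (38.8% of all genes, from 52.1%) and 0 lower by 1.5-fold (1407 of 14517 genes) in NB1691. In SKNAS 4 were higher (39.4%, from 47.2%). With averaged probe sets 6 were higher by 1.5-fold (1151 of 13782 genes) and 0 lower by 1.5-fold (1341) in NB1691. There 2 were lower by 2-fold in SKNAS (140 of 13782), 1 higher by 2-fold in SKNBE2 (170) and 2 higher in SKNAS/shHIF1a (46.7%). The cause was not tested. No paired analysis beyond the line block was possible because each line had 1 array per treatment.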

Other observations

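Several regulators outside the 45 genes had larger differences in NB1691 than most members. They were chosen after their values were seen, and none was called by limma. HUS1, part of the checkpoint clamp that is loaded at damaged forks, had log2 signals of 8.52 (ciclopirox) and 6.77 (vehicle) in NB1691, 7.45 and 7.72 in SKNAS, 7.07 and 7.65 in SKNBE2, and 7.37 and 7.28 in SKNAS/shHIF1a. The NB1691 pair differed by 1.75 and the other pairs by -0.58 to 0.08 (limma on NB1691 against the others, adjusted p = 0.325). TICRR, an origin-firing factor also known as treslin, had 7.20 and 5.50 in NB1691, 6.81 and 6.35 in SKNAS, 6.56 and 6.93 in SKNBE2, and 5.71 on both arrays of SKNAS/shHIF1a. CHEK1, the kinase downstream of ATR, was higher by 1.15 in NB1691 and differed by -0.53 in SKNAS, 0.12 in SKNBE2 and -0.60 in SKNAS/shHIF1a. CDC25A, a phosphatase that activates CDK2, differed by 1.13, -0.21, -0.20 and -0.65 in the same order of lines. Not every large difference was upward. CHTF8, from the list of other replication factors, differed by -1.37 in NB1691, 0.15 in SKNAS, -0.50 in SKNBE2 and -0.66 in SKNAS/shHIF1a.

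PRIM1 was not the only gene of its neighbourhood with a high level in NB1691. In the RefSeq order of GRCh38.p14, the tested genes on one side of PRIM1 were HSD17B6, RDH16, ZBTB39, TAC3 and NEMP1, whose levels in NB1691 exceeded the mean of the other lines by 6.59, 1.31, 3.40, 7.05 and 2.98. On the other side NACA, PTGES3, ATP5F1B, BAZ2A and RBMS2 differed by -0.21, -0.08, -0.06, 0.24 and -1.17. The high levels lay on 1 side of the gene. Of 10 such neighbours of RPA1 2 were higher by at least 1 (median of the 10, 0.81). These genes were examined after the levels of PRIM1 and RPA1 were seen, and none was called by limma.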
